A study of Arabidopsis thaliana with 21 samples.

Results

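WRKY proteins are plant transcription factors named after a conserved WRKYGQK stretch, and the 10 genes described here, WRKY6, WRKY18, WRKY22, WRKY25, WRKY29, WRKY33, WRKY40, WRKY46, WRKY53 and WRKY70, belong to the members of the family known for their response to stress. Their identifiers are AT1G62300 (WRKY6), AT4G31800 (WRKY18), AT4G01250 (WRKY22), AT2G30250 (WRKY25), AT4G23550 (WRKY29), AT2G38470 (WRKY33), AT1G80840 (WRKY40), AT2G46400 (WRKY46), AT4G23810 (WRKY53) and AT3G56400 (WRKY70). They were taken by identifier from a table of 21156 Arabidopsis genes, and all 10 were listed with a value in each of the 21 libraries. The table held 43 further WRKY genes, and the TAIR10.1 annotation names 67 in all. WRKY proteins bind the W box, a short DNA element, which also lies upstream of many WRKY genes. Several are activated by mitogen-activated protein kinases after a pathogen signal is perceived, and several act in salicylic acid signalling, in abscisic acid signalling or in leaf senescence.

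The mRNA came from leaves cut from plants of Arabidopsis thaliana aged 35 days, all of them F1 hybrids of Col-0 and Ler, and fed solutions through the petiole. The 7 groups of 3 libraries received buffer only (control, libraries 1 to 3), 1 mM ATP (libraries 4 to 6), 100 µM PAP (libraries 7 to 9), 100 mM LiCl (libraries 10 to 12), PAP with LiCl (libraries 13 to 15), PAP with ATP (libraries 16 to 18) or PAP with ATP and LiCl (libraries 19 to 21). PAP, 3'-phosphoadenosine 5'-phosphate, is a chloroplast-to-nucleus signal that the phosphatase SAL1 degrades, and lithium inhibits SAL1. ATP and LiCl were never combined without PAP, the feeding time is not given, and the treatment protocol names PAP at 1 mM or 100 mM where the sample labels give 100 µM. The labels do not say whether the libraries of a group came from separate plants, so p-values measure the spread between these libraries, which may in part be technical.

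Levels are in reads scaled to the library total (CPM), and changes are differences of log2(CPM + 0.5) between group means from limma, given with a standard error (SE). A gene was called past the threshold at a Benjamini-Hochberg adjusted p under 0.05 over all genes of a comparison. Library totals ran from 19190821 to 27155547 reads, so 1 read stood for 0.0368 to 0.0521 CPM, and the members rested on 24 (WRKY29) to 38567 (WRKY18) reads in a library. SAL1 mRNA was listed in every group, with a mean of 154 ± 59.0 CPM (SD, n = 3) in control leaves and 118 ± 4.93 CPM (SD, n = 3) in LiCl leaves; its level does not measure the activity that lithium inhibits. Because each library is a whole leaf sample, a change in the level of a gene cannot be told apart from a change in the share of the cells that express it.

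LiCl changed most of these genes. Averaged over its 3 backgrounds (buffer, PAP, and PAP with ATP), 8 of the 10 passed the threshold: WRKY6, WRKY53, WRKY18, WRKY33 and WRKY25 rose, and WRKY70, WRKY29 and WRKY46 fell. Of all 17458 genes tested, 41.6% passed in this comparison. The members' median change was 0.87 on the log2 scale, beside 0.01 over all genes. The quasi-likelihood test of edgeR and DESeq2, both run on the reads recovered from the CPM, each passed 8 members. The changes ran from a rise of 3.03 ± 0.28 (SE) for WRKY6 to a fall of WRKY70 by 1.52 ± 0.37 (SE).

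**Figure D1:**
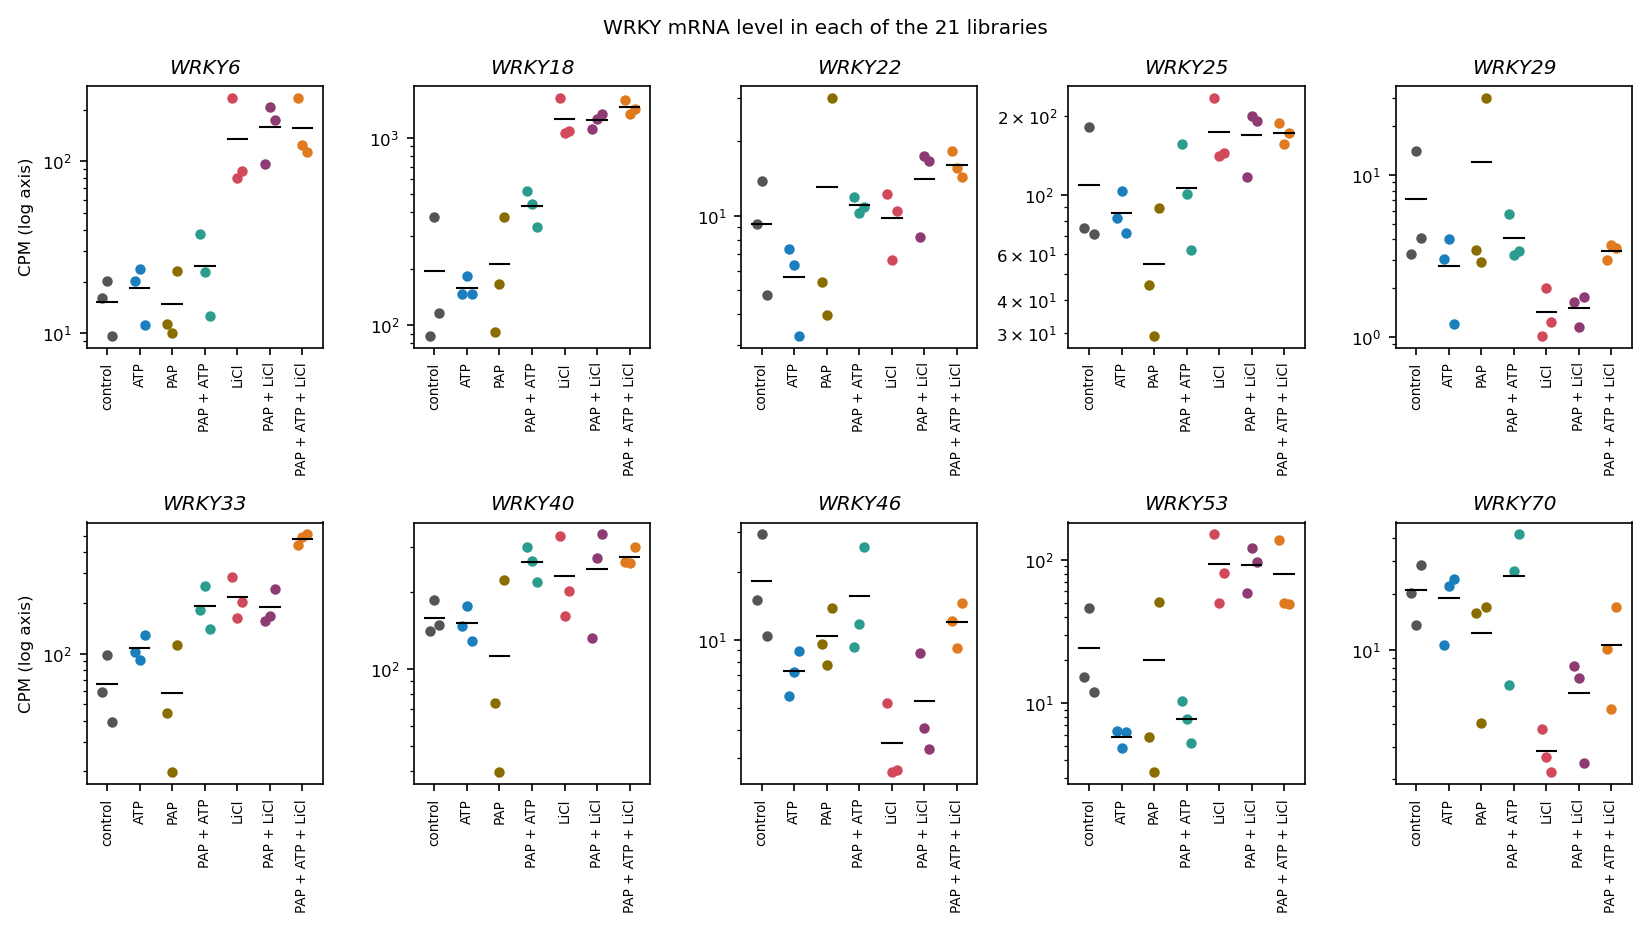
Level of each of the 10 WRKY genes in all 21 libraries. The y axis is CPM on a log axis, the x axis is the feeding group, each point is 1 library and each bar is the mean of 3. For WRKY6 and WRKY18 all 9 libraries with LiCl lie above all 12 without it, while WRKY29, WRKY46 and WRKY70 have their lowest values among the LiCl libraries.

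The upstream sequences of the 4 genes with the largest rises under LiCl are shown because 2 of these genes carry W boxes near their start and 2 do not. Each line gives the 300 bases that end 1 base before the annotated start of the gene, 5' to 3' on the strand of the gene, from the RefSeq TAIR10.1 genome. Capitals mark W boxes, searched as TTGACC and TTGACT on both strands.
WRKY6 (chr1:23019495-23019794, reverse strand): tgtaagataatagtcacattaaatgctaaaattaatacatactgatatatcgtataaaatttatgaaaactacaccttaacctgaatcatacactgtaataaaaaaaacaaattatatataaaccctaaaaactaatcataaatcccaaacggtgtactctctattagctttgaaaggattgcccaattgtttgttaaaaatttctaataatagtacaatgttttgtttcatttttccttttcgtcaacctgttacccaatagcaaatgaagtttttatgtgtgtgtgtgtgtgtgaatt
WRKY53 (chr4:12393983-12394282, reverse strand): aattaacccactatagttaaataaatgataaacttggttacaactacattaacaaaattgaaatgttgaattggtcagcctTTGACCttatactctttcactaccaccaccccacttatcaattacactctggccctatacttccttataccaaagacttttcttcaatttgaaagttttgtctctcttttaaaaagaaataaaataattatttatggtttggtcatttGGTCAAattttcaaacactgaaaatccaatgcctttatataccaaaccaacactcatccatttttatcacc
WRKY18 (chr4:15382477-15382776, forward strand): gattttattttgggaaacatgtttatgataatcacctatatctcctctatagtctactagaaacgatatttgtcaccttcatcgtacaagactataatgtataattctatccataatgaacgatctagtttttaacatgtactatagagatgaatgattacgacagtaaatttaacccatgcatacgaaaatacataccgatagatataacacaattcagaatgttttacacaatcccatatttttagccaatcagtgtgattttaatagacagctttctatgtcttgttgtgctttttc
WRKY33 (chr2:16107935-16108234, forward strand): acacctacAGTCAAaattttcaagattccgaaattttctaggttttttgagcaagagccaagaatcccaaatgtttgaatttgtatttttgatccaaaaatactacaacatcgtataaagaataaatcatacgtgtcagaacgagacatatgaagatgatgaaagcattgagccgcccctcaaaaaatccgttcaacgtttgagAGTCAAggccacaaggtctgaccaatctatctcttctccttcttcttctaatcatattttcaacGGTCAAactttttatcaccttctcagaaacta

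WRKY33 held 3 W boxes in this window, beginning 292, 96 and 32 bases before the start, and WRKY53 held 2, beginning 219 and 71 bases before it. WRKY29, which fell with LiCl, also held 2, and WRKY25 held 1, which begins 8 bases before its start. WRKY25 begins 6 bases past the end of U2B'', a gene on the same strand, so this W box begins inside U2B''. None was found for WRKY6, WRKY18, WRKY22, WRKY40, WRKY46 or WRKY70. At least 1 W box was therefore present in 4 of 10 members, and in 32.3% of the 27443 protein-coding genes. The share with at least 2 was 3 of 10 against 7.91%. Of the 43 other WRKY genes listed, 46.5% held at least 1 and 16.3% at least 2. A match of these letters is a description of the window, and binding was not measured.

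WRKY6, a regulator of senescence and defence that also represses the phosphate transporter gene PHO1, had the largest mean rise over 3 backgrounds with all libraries, while WRKY53 rose more in leaves fed PAP with ATP (3.14 against 2.71) and, without libraries 2 and 9, over 3 backgrounds (3.31 against 3.22). Its level was 16.0, 20.1 and 9.65 CPM in the control libraries and 234, 80.0 and 88.3 CPM in the LiCl libraries. In PAP leaves it was 11.4, 10.14 and 22.9 CPM without LiCl and 96.8, 207 and 173 CPM with it. The LiCl libraries lie above the others in both backgrounds. In leaves fed PAP with ATP, the level was 38.0, 22.8 and 12.6 CPM without LiCl and 234, 124 and 113 CPM with it. The lowest of the 9 LiCl libraries, at 80.0 CPM, thus stood above the highest of the 12 others, at 38.0 CPM. Over the 3 backgrounds the gene rose 8.17-fold on the log2(CPM + 0.5) scale (adjusted p = 3.6e-07, limma). The change was 2.97, 3.40 and 2.71 in buffer, PAP and PAP with ATP, each past the threshold.

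WRKY18 encodes a leucine-zipper WRKY protein that acts with WRKY40 and WRKY60 in defence and abscisic acid signalling. It was the most abundant member on average over all libraries, at 348 CPM per kilobase of exon, followed by WRKY40 at 155. That average includes the LiCl libraries, in which WRKY18 was high. WRKY40 was above WRKY18 in control leaves (120 beside 95.9 CPM per kilobase) and in ATP leaves (114 beside 78.2), and below it in the other groups. The level of WRKY18 was 87.6, 379 and 116 CPM in control libraries and 1627, 1056 and 1080 CPM in LiCl libraries. In PAP leaves it was 92.3, 166 and 378 CPM, and with LiCl added 1106, 1257 and 1337 CPM. Here too no library without LiCl reached the lowest with it. In PAP with ATP the level was 521, 441 and 332 CPM, and with LiCl added 1587, 1336 and 1425 CPM. The rise over 3 backgrounds was 2.50 ± 0.27 (SE; adjusted p = 1.6e-06, limma). In leaves fed PAP with ATP the rise was 1.77 ± 0.46 (adjusted p = 0.022, limma), and it missed the threshold without library 17, 18, 19, 20 or 21 (adjusted p from 0.0523 to 0.0762, changes from 1.59 to 1.82).

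WRKY53 is a group III WRKY gene known as a positive regulator of leaf senescence. Its control libraries had 15.2, 45.7 and 12.0 CPM and its LiCl libraries 150, 49.6 and 80.2 CPM. In PAP leaves the values were 5.75, 3.28 and 50.4 CPM, and with LiCl added 58.8, 120 and 96.2 CPM. Library 2 of the control group and library 9 of the PAP group were the high ones, and library 9 exceeded the lowest LiCl library. In leaves fed PAP with ATP the level was 10.3, 7.75 and 5.26 CPM, and with LiCl added 138, 50.1 and 49.1 CPM. The rise over 3 backgrounds was 2.74 ± 0.42 (SE; adjusted p = 6.8e-05, limma). On its own, the rise in buffer, 2.02 ± 0.73 (adjusted p = 0.0647, limma), did not pass. It did not pass in edgeR either (adjusted p = 0.0852), but passed in DESeq2 (adjusted p = 0.0329).

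WRKY33, a substrate of MPK3 and MPK6 that activates camalexin synthesis, had 59.4, 98.6 and 39.3 CPM in control libraries and 283, 162 and 203 CPM in LiCl libraries. In PAP leaves it had 44.4, 19.7 and 112 CPM, and with LiCl added 157, 167 and 241 CPM. In leaves fed PAP with ATP it had 181, 251 and 140 CPM, and with LiCl added 438, 489 and 509 CPM. The LiCl libraries were higher than their own controls in all 3 backgrounds with no overlap, and leaves fed all 3 agents were higher than those of any other group. The rise over 3 backgrounds was 1.71 ± 0.26 (SE; adjusted p = 6.0e-05, limma). WRKY25, a close relative of WRKY33 known for roles in heat and salt responses, rose 2.14-fold (adjusted p = 0.00149, limma). Its level spanned 117 to 234 CPM (median 172) in the 9 LiCl libraries and 29.2 to 181 CPM (median 78.2) in the 12 others, so the ranges overlap.

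**Figure D2:**
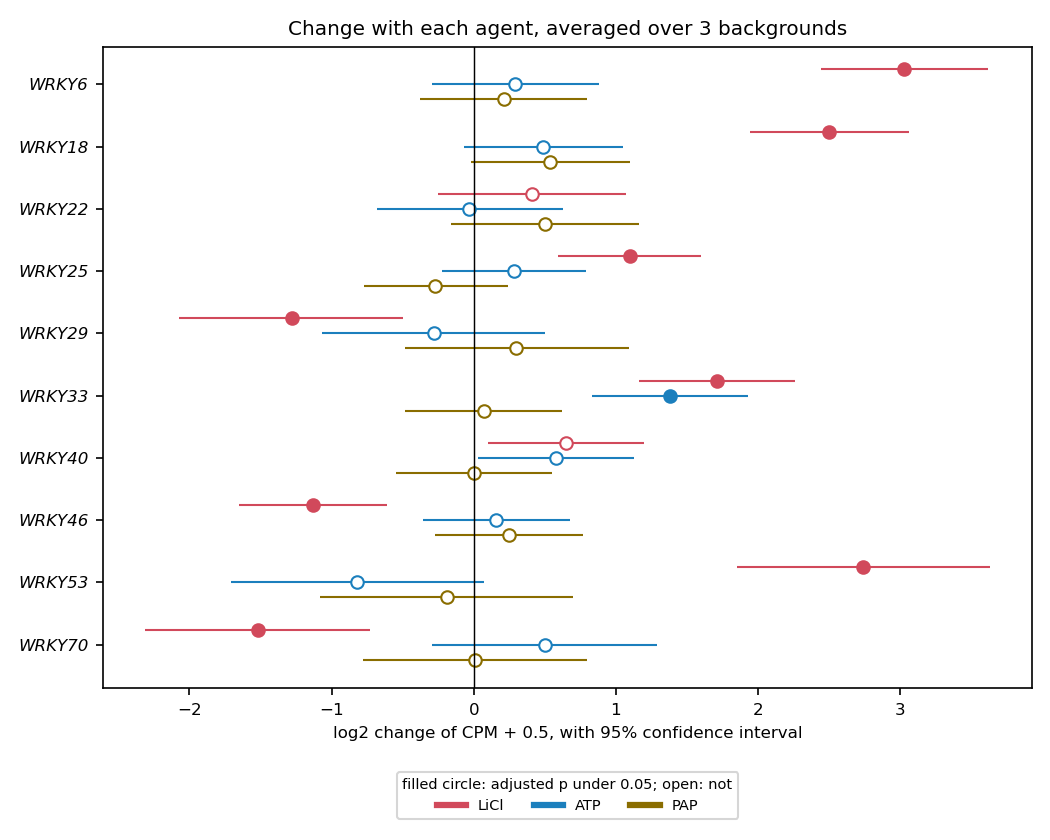
Change of each gene with LiCl, ATP and PAP, each averaged over the 3 backgrounds in which it was added. The x axis is the log2 change of CPM + 0.5 with its 95% confidence interval, and filled circles have an adjusted p under 0.05. With LiCl 5 genes lie to the right and 3 to the left past the threshold, with ATP only WRKY33 passes, and with PAP no gene does.

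The 3 genes that fell with LiCl did not exceed 42.0 CPM in any library. WRKY70, a group III gene placed between salicylic acid and jasmonate signalling, had 20.4, 13.7 and 28.7 CPM in control libraries and 3.75, 2.64 and 2.18 CPM in LiCl libraries. In PAP leaves it had 15.8, 4.03 and 17.0 CPM, and with LiCl added 8.15, 7.05 and 2.46 CPM. The groups are apart in buffer and overlap in PAP. In leaves fed PAP with ATP it had 6.46, 26.6 and 42.0 CPM, and with LiCl added 10.1, 4.77 and 17.1 CPM. The fall over 3 backgrounds (adjusted p = 0.00361, limma) passed on its own in buffer, where WRKY70 fell by 2.64 ± 0.65 (adjusted p = 0.00993, limma). In PAP and in PAP with ATP the changes of -0.91 ± 0.65 and -1.01 ± 0.65 did not pass.

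WRKY46, a group III gene that acts with WRKY70 and WRKY53 in basal defence, had 15.1, 29.3 and 10.4 CPM in control libraries and 5.27, 2.60 and 2.67 CPM in LiCl libraries. It fell by 2.16 ± 0.43 in buffer (adjusted p = 0.00247, limma) and by 1.13 ± 0.25 over 3 backgrounds (adjusted p = 0.00145, limma). Its change was -0.96 ± 0.43 in PAP and -0.26 ± 0.43 in PAP with ATP, and neither passed. The difference between buffer and PAP with ATP was not tested. WRKY29, which with WRKY22 lies downstream of the flagellin-activated MAP kinase cascade, fell by 1.28 ± 0.37 over 3 backgrounds (adjusted p = 0.0107, limma). It had 3.24, 14.1 and 4.06 CPM in control libraries and 1.01, 2.01 and 1.24 CPM in LiCl libraries. In PAP leaves it had 3.44, 2.91 and 30.0 CPM, against 1.64, 1.15 and 1.75 CPM with LiCl added. The high library is again library 2 in control and library 9 in PAP. Without library 9 the change in PAP leaves was -0.88 in place of -1.90, and it missed the threshold without library 9, 13, 14 or 15. The change of WRKY29 in buffer, -1.75 ± 0.65, did not pass (adjusted p = 0.0703, limma). In leaves fed PAP with ATP it had 5.72, 3.19 and 3.39 CPM, and with LiCl added 2.96, 3.69 and 3.52 CPM. These groups overlap, and the change of -0.20 ± 0.65 did not pass.

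WRKY40 and WRKY22 did not pass over 3 backgrounds. WRKY40, the partner of WRKY18, changed by 0.65 ± 0.26 (adjusted p = 0.0529, limma), with 133 to 336 CPM (median 262) in the LiCl libraries and 39.6 to 300.0 CPM (median 163) in the others. It passed without library 9 (0.88, adjusted p = 0.00183), without library 11 (adjusted p = 0.0444) and without library 13 (adjusted p = 0.0226). WRKY22 changed by 0.41 ± 0.31 (adjusted p = 0.307, limma), with 6.61 to 18.3 CPM in the LiCl libraries and 3.27 to 30.0 CPM in the others, and passed without library 9 (0.70, adjusted p = 0.0183).

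In single backgrounds, LiCl against control passed for 5 members, with WRKY6, WRKY18 and WRKY33 higher and WRKY46 and WRKY70 lower, where 17.6% of all genes passed. PAP + LiCl against PAP passed for 7, with WRKY6, WRKY18, WRKY25, WRKY33, WRKY40 and WRKY53 higher and WRKY29 lower, where 21.6% of all genes passed. WRKY40 did so with a rise of 1.40 ± 0.45 (adjusted p = 0.0345, limma) that was lost without library 7, 8, 14 or 15. PAP + ATP + LiCl against PAP + ATP passed for 3, WRKY6, WRKY18 and WRKY53, all higher, where 9.44% of all genes passed. In these 3 comparisons edgeR passed 6, 6 and 3 members and DESeq2 7, 6 and 4. Of all genes edgeR called 3490, 4174 and 1823, and DESeq2 4503, 5112 and 2805. For LiCl against control both added WRKY29, which was lower, and DESeq2 also added WRKY53, which was higher. Differences between backgrounds were tested directly for PAP against buffer and for PAP with ATP against PAP. The interaction of PAP and LiCl passed for 0 members and 0% of all genes in limma, and for 0 members in edgeR and in DESeq2. At an unadjusted p under 0.05 in limma there were 0 members and 1.82% of all genes. The interaction of ATP and LiCl in PAP-fed leaves likewise passed for 0 members by any of these tools, where 0.0285% of all genes passed in limma.

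**Figure D3:**
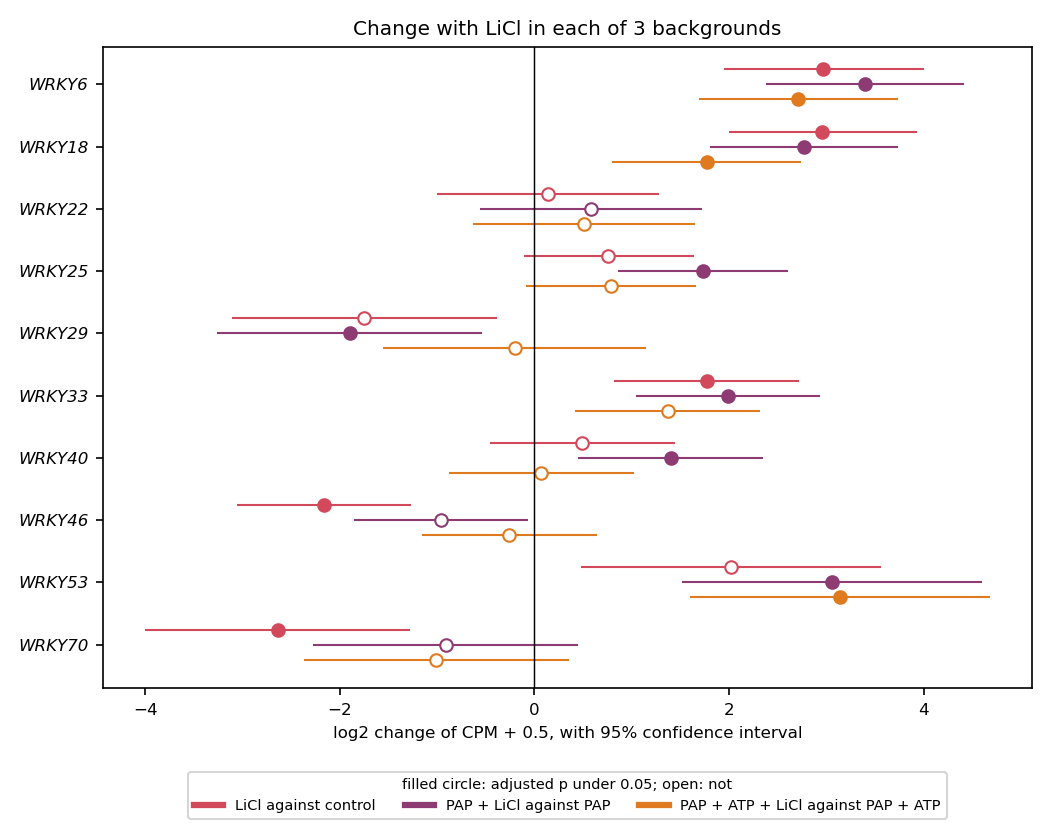
Change with LiCl in each of its 3 backgrounds. The x axis is the log2 change of CPM + 0.5 with its 95% confidence interval, and filled circles have an adjusted p under 0.05. WRKY6 and WRKY18 pass in all 3 backgrounds, and WRKY46 and WRKY70 in buffer only. For WRKY46 the intervals in buffer and in PAP with ATP do not overlap.

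The members varied widely between libraries of 1 group. In library 9, fed PAP, all 10 members stood above the mean of their group, with a median deviation of 1.17 on the log2 scale, and in library 8 of the same group none did. In control library 2, 9 of 10 stood above the mean, with a median deviation of 0.738. The median deviation of all genes was -0.0162 in library 9, 0.0615 in library 8 and 0.0751 in library 2. The median standard deviation of the members was 1.17 in PAP leaves, beside 0.37 over all genes, and 0.73 in control leaves, beside 0.40. In leaves fed all 3 agents it was 0.16, beside 0.26. What set these libraries apart was not tested.

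With libraries 2 and 9 left out together, which were picked because the members themselves stood high in them, all 10 members passed over 3 backgrounds, 7 higher and 3 lower, where 39.3% of all genes passed. WRKY40 then changed by 0.92 (adjusted p = 0.00202, limma) and WRKY22 by 0.81 (adjusted p = 0.00613, limma). LiCl against control then passed for 8 members in place of 5, adding WRKY25, WRKY29 at -1.14 and WRKY53 at 2.60. For WRKY53, all 9 LiCl libraries (49.1 to 150 CPM) then lay above the 10 others (3.28 to 15.2 CPM). Libraries 2 and 9 lie in groups fed neither LiCl nor ATP. Leaving them out lowers the level to which these agents are compared, for most members. The counts and adjusted p-values of this fit follow in part from that choice, so they are a description and not a test.

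**Figure D4:**
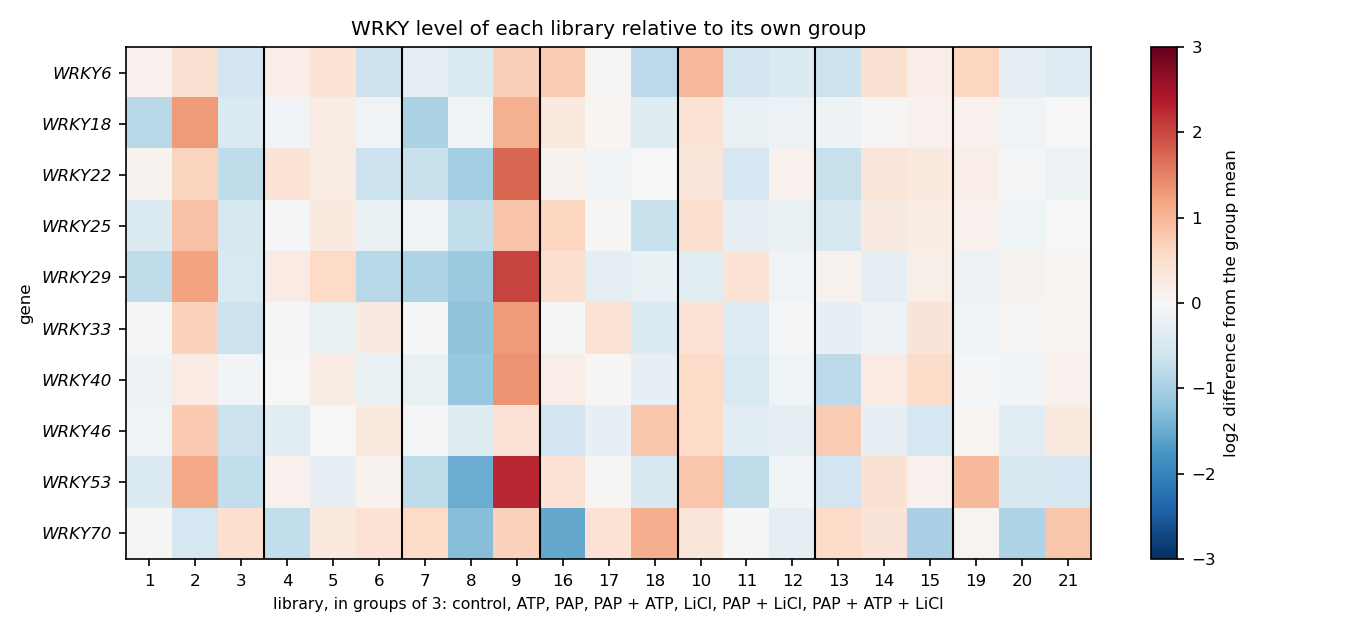
Difference of each library from the mean of its own group on the log2(CPM + 0.5) scale, for each gene (rows) and library (columns, in groups of 3 separated by black lines). Red is above and blue below the group mean. Library 9 is red for all 10 genes, library 8 blue for all 10, and library 2 red for 9.

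ATP also serves plants as a signal outside the cell. Over its 3 backgrounds (buffer, PAP, and PAP with LiCl) only WRKY33 passed, with a rise of 1.38 ± 0.26 (SE; adjusted p = 0.0036, limma), where 15.1% of all 17483 genes passed, so the count of 1 in 10 is near the share over all genes. Its rise was 0.79 ± 0.45 in buffer, 1.99 ± 0.45 in PAP and 1.36 ± 0.45 in PAP with LiCl. In ATP leaves it had 102, 91.5 and 129 CPM beside 59.4, 98.6 and 39.3 CPM in control leaves. These groups overlap, whereas those of the other backgrounds do not. WRKY18 passed without library 2 (0.70, adjusted p = 0.034) and WRKY40 without library 9 (0.81, adjusted p = 0.014). Without libraries 2 and 9 together, WRKY18, WRKY33 and WRKY40 passed, at 0.88, 1.71 and 0.85. That fit has the limit given above.

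ATP against control passed for 0 members in limma, edgeR and DESeq2, where 7.26% of all genes passed in limma. At an unadjusted p under 0.05 there were 2, beside 24.2% of all genes, so the count is near that share. WRKY53 had 6.42, 4.83 and 6.25 CPM in ATP leaves, all below the 15.2, 45.7 and 12.0 CPM of control leaves, a difference of -1.73 ± 0.73 (adjusted p = 0.158, limma). WRKY46 had 5.68, 7.20 and 8.91 CPM, below the 15.1, 29.3 and 10.4 CPM of control leaves, a difference of -1.17 ± 0.43 (adjusted p = 0.1, limma). Neither gene passed, and the median over all genes was -0.16. How many of all genes have groups that do not overlap was not counted. Median-of-ratios scaling in place of the library total moved the median of all genes by 0.20 in this comparison, and turned the 319 higher and 964 lower genes into 493 and 400. Over 3 backgrounds it turned 1033 higher and 1603 lower genes into 1558 and 1343.

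PAP + ATP against PAP passed for 2 members, where 6.86% of all genes passed. WRKY33 rose from 44.4, 19.7 and 112 CPM to 181, 251 and 140 CPM, a change of 1.99 ± 0.45 (adjusted p = 0.022, limma). WRKY40 rose from 74.1, 39.6 and 224 CPM to 300.0, 265 and 219 CPM, a change of 1.57 ± 0.45 (adjusted p = 0.0459, limma). The WRKY33 groups do not overlap and those of WRKY40 do, through library 9. Neither passed when library 7, 8, 16 or 17 was left out (count 0), and edgeR and DESeq2 passed 1 each. Without libraries 2 and 9, picked for their high member values, there were 4, WRKY18, WRKY25, WRKY33 and WRKY40, with changes of 1.77, 1.43, 2.62 and 2.25. PAP + ATP + LiCl against PAP + LiCl passed for 0 members in limma, edgeR and DESeq2, where 0.113% of all genes passed in limma. Of all genes 7.19% had an unadjusted p under 0.05, and 2 members did. These were WRKY33, at 1.36 ± 0.45, and WRKY46, at 1.17 ± 0.43 (adjusted p = 0.388 and 0.487, limma).

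PAP gave no member past the threshold in limma, edgeR or DESeq2. This held against control, in ATP-fed leaves, in LiCl-fed leaves and over 3 backgrounds, and in limma 0% of all genes passed in each of these 4 comparisons. DESeq2 called 51, 219, 43 and 28 of all genes in them, and edgeR 3, 3, 1 and 3. At an unadjusted p under 0.05 there were 1, 2, 0 and 0 members, beside 4.8%, 10.7%, 0.738% and 1.84% of all genes. WRKY25 was 45.4, 29.2 and 89.6 CPM in PAP leaves beside 74.8, 181 and 71.3 CPM in control leaves, a difference with a 95% interval of -1.87 to -0.13. In ATP-fed leaves WRKY18 was 521, 441 and 332 CPM with PAP beside 147, 183 and 146 CPM without it, a difference of 1.43 ± 0.46 (95% interval 0.46 to 2.40). The WRKY18 groups are apart, but its adjusted p was 0.316. Over 3 backgrounds the lowest end of the members' 95% intervals for PAP was -1.08 (WRKY53) and the highest was 1.16 (WRKY22). Each gene has its own interval, not adjusted for the number of genes. A change inside that interval is compatible with the values of these libraries.

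The interaction of PAP and ATP passed for 0 members in limma, edgeR and DESeq2, and for 0% of all genes in limma, with a smallest adjusted p of 0.318 among the members. Its value was above 0 for all 10 members, with a median of 1.21 beside 0.17 over all genes. Scaling moved the median over all genes by -0.17. At an unadjusted p under 0.05 there were 12.4% of all genes and 2 members, WRKY40 at 1.64 ± 0.64 and WRKY46 at 1.64 ± 0.60. All members share the 12 libraries of this contrast, including the widely spread PAP libraries, so their signs are not independent.

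The order of the groups differed from gene to gene. By the mean of log2(CPM + 0.5), the 3 LiCl groups came first for WRKY6, WRKY18, WRKY25, WRKY33 and WRKY53. For WRKY33 the means of PAP with LiCl and of PAP with ATP were nearly equal, at 7.537 and 7.534. Neighbours in that order had ranges apart in few places. For WRKY6, WRKY18 and WRKY53 this was the step from the lowest LiCl group to the next group below. For WRKY33 it was the step below leaves fed all 3 agents, at 479 CPM, and the step from PAP with ATP, at 190 CPM, to ATP alone, at 108 CPM. For the other members no neighbours were apart. How often neighbouring groups are apart over all genes was not counted. Among the members, the group profiles closest to each other, by root mean square difference of 7 centred group means, were those of WRKY25 and WRKY40 (0.30), WRKY6 and WRKY18 (0.37) and WRKY29 and WRKY46 (0.39), and the farthest apart were WRKY53 and WRKY70 (2.36).

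Among 12700 genes with a mean of at least 5 CPM, the profile nearest to WRKY18 was that of BHLH92 (root mean square difference 0.11). The nearest to WRKY6 was FDM1 (0.20), followed by the receptor-like kinase gene CRK3 (0.24). WRKY33 was nearest to SZF1 (0.15), which encodes a zinc finger protein of the salt response, and WRKY25 to AT1G04280 and the calcium-dependent kinase gene CPK1 (0.11 each). WRKY29 was nearest to SMT3 (0.11), WRKY40 to AT1G49050 (0.07), WRKY22 to AT2G44600 (0.14) and WRKY46 to AT2G22890 (0.21). MYB51, a regulator of indole glucosinolate synthesis, came next for WRKY46 (0.25). WRKY53 was nearest to AT4G38860 (0.34). WRKY70 was nearest to AT1G73810 (0.25), and the kinase gene MKK4 was also among its 3 nearest (0.27). The differences are not scaled to the size of each gene's own profile, which ran from 0.45 for WRKY22 to 1.55 for WRKY53. These profiles rest on 7 group means each and share the same libraries.

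The rest of the family also moved in both directions under LiCl. Of the 43 other WRKY genes listed, 29 could be tested over 3 backgrounds, and 11 rose and 10 fell, with a median change of -0.12, where 41.6% of all genes passed. WRKY15 rose by 2.71 ± 0.21 (adjusted p = 5.7e-08, limma), WRKY47 by 2.53 ± 0.28 (adjusted p = 2.7e-06) and WRKY2 by 1.31 ± 0.14 (adjusted p = 1.6e-06). WRKY23 fell by 1.04 ± 0.18 (adjusted p = 1.6e-04), WRKY3 by 0.92 ± 0.16 (adjusted p = 2.2e-04) and WRKY4 by 0.61 ± 0.09 (adjusted p = 6.8e-05). WRKY60, the other partner of WRKY18 and WRKY40, changed by -0.21 ± 0.45 and did not pass. With ATP over 3 backgrounds 4 of 30 rose, WRKY4, WRKY15, WRKY30 and WRKY39, and none fell, a share near the 15.1% of all genes. With PAP over 3 backgrounds 0 of 29 passed in limma, and none had an unadjusted p under 0.05.

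**Figure D5:**
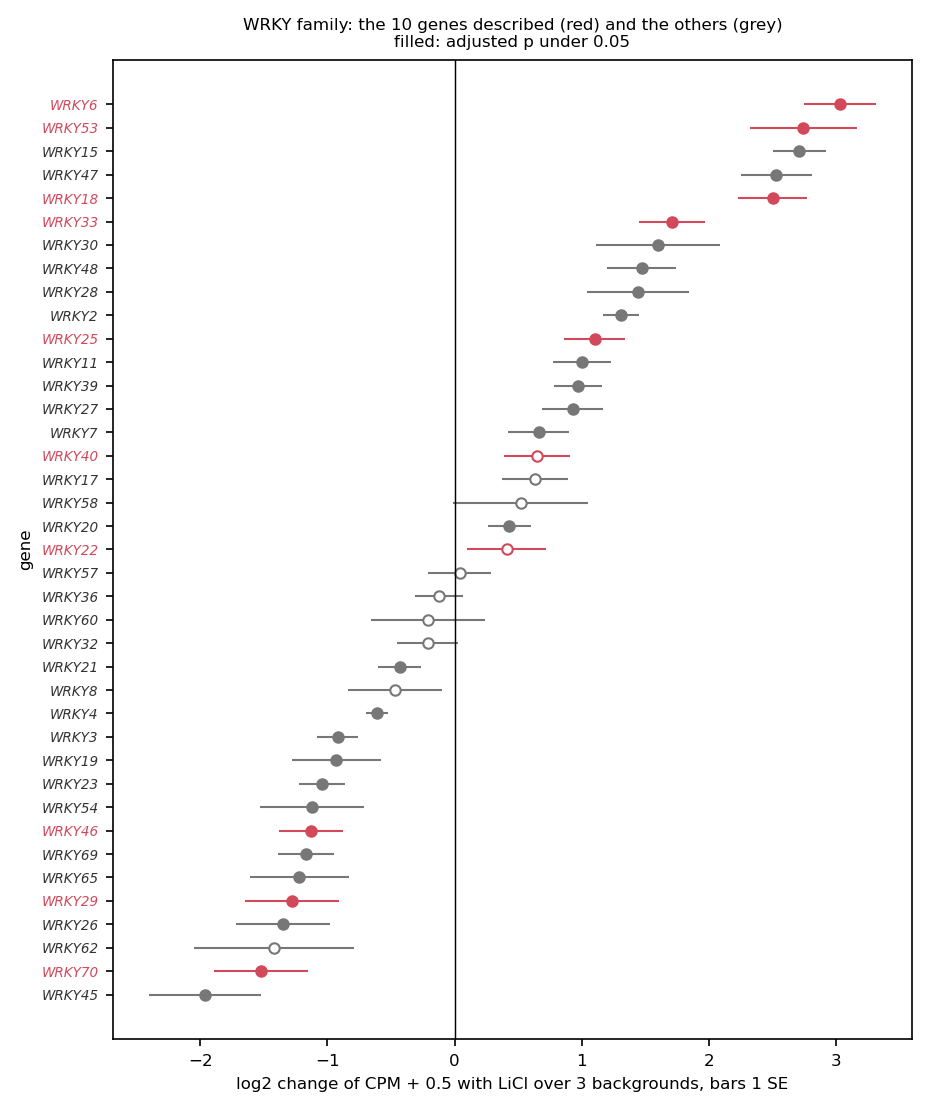
Change with LiCl over 3 backgrounds of the 10 genes described (red) and of the 29 other WRKY genes that could be tested (grey), sorted by change. The x axis is the log2 change of CPM + 0.5, bars are 1 SE, and filled circles have an adjusted p under 0.05. Members lie at both ends of the family, WRKY6 highest at 3.03 and WRKY70 next to lowest at -1.52.

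Genes that act before, with or after WRKY proteins were compared over 3 backgrounds, where 41.6% of all genes passed with LiCl and 15.1% with ATP. With LiCl, of 10 genes of the MAP kinase cascades that activate WRKY proteins, 4 rose and 2 fell, and the other 4 did not pass. The kinase kinase gene MKK1 rose by 1.45 ± 0.13 (adjusted p = 3.2e-07, limma), MPK3 by 0.89 ± 0.16 (adjusted p = 2.6e-04) and MEKK1 by 0.83 ± 0.15 (adjusted p = 3.7e-04), while MKK4 fell by 1.65 ± 0.32 (adjusted p = 5.3e-04). With ATP 3 of 10 rose, MPK3 by 0.83 ± 0.16, MPK11 by 1.39 ± 0.33 and MEKK1 by 0.55 ± 0.15. Of 5 partner proteins, SIB1 and SIB2, which bind WRKY33 and enhance its activity, fell with LiCl by 1.85 ± 0.30 and 1.24 ± 0.28 (adjusted p = 1.0e-04 and 0.00169, limma), and ESP, which binds WRKY53, rose by 0.40 ± 0.10. The MPK4 substrate gene MKS1 and SIB1 rose with ATP, by 0.95 ± 0.22 and 1.03 ± 0.30 (adjusted p = 0.0117 and 0.0278, limma).

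Of 17 genes reported elsewhere as WRKY targets 14 could be tested with LiCl over 3 backgrounds, and 5 rose and 2 fell, with a median change of 0.30. This count is near the 41.6% of all genes that passed. The ethylene synthesis genes ACS6 and ACS2 went opposite ways, ACS6 rising by 1.19 ± 0.17 (adjusted p = 3.2e-05, limma) and ACS2 falling by 1.57 ± 0.29 (adjusted p = 4.2e-04). EDS1, a hub of defence signalling, rose by 1.07 ± 0.22 (adjusted p = 0.00104), and NCED3, the gene for a rate-limiting step of abscisic acid synthesis, by 1.17 ± 0.26 (adjusted p = 0.00148). The camalexin gene PAD3 changed by -0.08 ± 0.71 and did not pass. ACS6 was the only target that passed with ATP, where 15 were tested, at 0.63 ± 0.17 (adjusted p = 0.0208, limma). With PAP over 3 backgrounds none of the MAP kinase, partner or target genes passed in limma or had an unadjusted p under 0.05. In PAP against control none passed either. There all 10 MAP kinase genes were lower, with a median change of -0.56 beside -0.05 over all genes. Of the 10, 4 had an unadjusted p under 0.05, beside 4.8% of all genes. These genes share the same libraries, so their signs are not independent.

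Markers of leaf cell types were compared with LiCl over 3 backgrounds, where 41.6% of all genes passed. The summed level of 4 epidermis markers, all in the table, was 177 to 519 CPM (median 328) in the 9 LiCl libraries and 406 to 1323 CPM (median 887) in the 12 others, and of the 3 that could be tested 1 fell. This was CER6, a wax synthesis gene, at -1.67 ± 0.20 (adjusted p = 4.1e-06, limma). Of 5 phloem and vascular markers 3 rose and 2 fell. Their sum was 266 to 326 CPM (median 290) with LiCl and 144 to 344 CPM (median 217) without it. Of 4 mesophyll markers 2 rose, with sums of 10717 to 26146 CPM (median 24341) with LiCl and 8042 to 26971 CPM (median 13500) without it. Of 5 guard cell markers none passed, with sums of 12.9 to 33.5 CPM (median 30.0) with LiCl and 17.8 to 64.4 CPM (median 30.9) without it. The trichome marker GL2 had at most 1.64 CPM, and GL1 was not listed. Whether the cell make-up of the leaves had a part in the WRKY changes was not tested.

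Positions are those of TAIR10.1, and the library kit did not keep the strand. WRKY6 lies at chr1:23016569-23019494, WRKY40 at chr1:30383561-30385499, WRKY25 at chr2:12903208-12905338, WRKY33 at chr2:16108235-16110766 and WRKY46 at chr2:19043411-19044955. WRKY70 lies at chr3:20908711-20910623, WRKY22 at chr4:522530-524249, WRKY29 at chr4:12291632-12293367, WRKY53 at chr4:12392370-12393982 and WRKY18 at chr4:15382777-15385100. Genes on the opposite strand overlap 4 members, by 251 bases for WRKY29, 272 and 26 for WRKY33, 51 for WRKY40 and 341 for WRKY53, and reads there cannot be told apart by strand. Those listed in the table were low, with means of 5.33, 5.31 and 1.87 CPM beside WRKY33, WRKY40 and WRKY53. AT1G80850, which overlaps WRKY40, rose by 1.60 ± 0.16 with LiCl (adjusted p = 1.1e-06, limma). WRKY25 begins 6 bases past the end of U2B'', a spliceosome gene on the same strand. U2B'' had a mean of 33.6 CPM beside 124 for WRKY25, and rose by 0.31 ± 0.11 with LiCl (adjusted p = 0.027, limma) where WRKY25 rose 2.14-fold.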

How the data were processed

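Polyadenylated RNA of 21 petiole-fed leaf samples was sequenced with a TruSeq V2 kit, per the labels' protocols. Per the submitters' processing notes, reads were handled with Subread and featureCounts on TAIR10; versions and settings are not given in the sources used here. The deposited table holds CPM, counts scaled by the authors to the library total, for 21156 genes, of which 20952 (99.0%) matched the TAIR10.1 annotation. The CPM of 1 read was taken as the smallest value of a library. Dividing by it gave whole numbers within 1e-06 for 100.0% of the values of every library. The totals of 19190821 to 27155547 reads were worked out from the CPM of 1 read, and the recovered reads were not summed. No value was 0. A gene's values were missing for whole groups at a time, and missing values were treated as absent in limma and as 0 reads in edgeR and DESeq2. Columns name the group but not the replicate, so libraries are numbered by column.

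In R 4.3.3, limma 3.58.1 was fitted to log2(CPM + 0.5) of all 21 libraries with 1 mean per group and an intensity trend, for the 17794 genes that reached 1 CPM in 3 or more libraries. Tests were two-sided, with Benjamini-Hochberg adjustment over all genes of each of 15 comparisons and a threshold of 0.05. A change over 3 backgrounds is the mean of 3 comparisons that share no library. The fit was tested on simulated data. Alternatives were pseudocounts of 0.1 and 2, no filter, a mean of at least 5 CPM, median-of-ratios scaling, the compared groups only, library weights, edgeR 4.0.16 and DESeq2 1.42.0 on the recovered reads, and each library left out in turn. A fit without libraries 2 and 9 was added after their values were seen.

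The members and lists were chosen with earlier results of these data known. The rule named all members, the 6 other WRKY genes and 4 genes of each list with the smallest p over 3 backgrounds, and the 3 nearest profiles per member; not all of them are printed, and WRKY60, PAD3, U2B'' and AT1G80850 were picked outside it after their values were seen.

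The default estimate of library weights did not converge (weights from 0.00 to 71.57) and was replaced by limma's gene-by-gene estimate (0.30 to 5.43). Both were run. The W box window was first 250 bases before and 50 after the start and was moved to 300 before it; both gave 4 of 10 members with a W box, and 32.4% and 32.3% of all genes.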

Additional observations from a re-analysis of the deposited data

How the results depend on the processing

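No paired analysis was possible because the columns carry no replicate number of the labels. The 8 calls of LiCl over 3 backgrounds kept their direction and their side of the threshold in every alternative that tested the gene. A mean of at least 5 CPM removed WRKY29 (mean 4.64 CPM) and left 7. With 1 library left out the count of members was 8 to 10 for this comparison. Other ranges with 1 library left out were 5 to 6 for LiCl against control, 5 to 7 for PAP + LiCl against PAP, 2 to 3 for PAP + ATP + LiCl against PAP + ATP, 0 to 3 for PAP + ATP against PAP and 1 to 2 for ATP over 3 backgrounds, and 0 in the other comparisons. Counts of members moved as follows, and the cause was not tested. The 7 of PAP + LiCl against PAP became 3 in a fit of the compared groups only. The 2 of PAP + ATP against PAP became 0 in that fit (8 genes in all in place of 1212), 1 with no filter, with edgeR and with DESeq2, 5 with library weights and 4 without libraries 2 and 9. The 1 of ATP over 3 backgrounds became 3 with library weights and without libraries 2 and 9, and 2 with DESeq2. DESeq2 added WRKY53 (adjusted p = 0.0416, DESeq2), which was lower with ATP, by 0.82 in limma. LiCl against control became 8 without libraries 2 and 9. Library weights raised 0 to 1 in ATP against control and PAP + ATP + LiCl against PAP + LiCl, and to 2 in PAP + ATP against ATP, the interaction of PAP and ATP, and the interaction of ATP and LiCl. The default weights, which did not converge, gave 1, 2, 4, 0 and 0 in these 5, and 1 in PAP + ATP against PAP. Changes that passed in no setting named here crossed 0. With ATP over 3 backgrounds, WRKY22 (-0.03) was 0.03 with scaling, 0.26 with weights and 0.37 without libraries 2 and 9, WRKY29 (-0.28) 0.02 with weights and 0.26 without libraries 2 and 9, and WRKY46 (0.16) -0.00 with weights. With PAP over 3 backgrounds, WRKY29 was -0.14 with weights, and WRKY33 was -0.03 and WRKY70 -0.19 without libraries 2 and 9. WRKY70 was -0.01 with a pseudocount of 2, WRKY53 was 0.07 with edgeR and DESeq2, and WRKY40 was 0.00 with a pseudocount of 2, 0.01 with scaling, 0.03 with weights and 0.14 with edgeR and DESeq2. With 1 library left out, ATP gave -0.20 to 0.26 for WRKY22 and -0.47 to 0.06 for WRKY29, and PAP gave -0.04 to 0.50 for WRKY29, -0.14 to 0.27 for WRKY33, -0.23 to 0.18 for WRKY40, -0.56 to 0.06 for WRKY53 and -0.17 to 0.26 for WRKY70. Depth limits WRKY29 most, which rested on as few as 24 reads in a library.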

Other observations

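Genes of leaf senescence, a process in which WRKY6 and WRKY53 act, moved in both directions with LiCl. Of 11 listed genes 10 could be tested over 3 backgrounds, and 2 rose and 5 fell, with a median change of -0.81 beside 0.01 over all genes, of which 41.6% passed. The chlorophyll breakdown genes SGR1 and PAO fell by 1.28 ± 0.28 and 0.96 ± 0.23 (SE; adjusted p = 0.00169 and 0.00298, limma), and the transcription factor gene ORE1 fell by 3.02 ± 0.77 (adjusted p = 0.00457). SAG113 fell by 1.88 ± 0.49 (adjusted p = 0.00542). Outside the 4 smallest p-values, and picked after its value was seen, the transcription factor gene NAP rose by 2.40 ± 0.67 (adjusted p = 0.00861, limma). With ATP over 3 backgrounds only SEN1 passed, with a rise of 1.57 ± 0.44 (adjusted p = 0.0248, limma), and with PAP over 3 backgrounds no gene of the list passed in limma or had an unadjusted p under 0.05.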
